A study of Drosophila melanogaster with 18 samples.

Results

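The genes described here are 10 transcription factors of stress, tumour growth and cell identity in Drosophila: the Ets factor Ets21C and the basic leucine zipper (bZIP) factors Atf3, Xrp1, CG6272 (Irbp18), crc (ATF4), cnc, maf-S, CrebA, Pdp1 and vri. They were chosen by symbol, all 10 were found among the 17373 genes of the count table, and all 10 passed the filter on low counts, which left 8585 genes for testing. RNA came from whole wing imaginal discs, the larval epithelia from which wing and notum develop, taken by hand from wandering last-instar larvae raised at 25 °C. The discs were of 3 groups: wts149 clones (ubxflp, FRT82B wts149) on day 9, wts149 clones of the same genotype on day 5, and control clones (ubxflp, FRT82B without wts149) labelled day 5, whose description field reads d5.d6. All groups, the controls included, carried their clones in a Minute background, a heterozygous loss of a ribosomal protein gene that slows cell growth. wts encodes Warts, the kinase of the Hippo pathway that holds back the growth activator Yorkie. Each group had 3 replicates, each the sum of an a and a b library.

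bZIP proteins bind DNA as dimers, so the partner decides what a factor can do. ATF4 (crc) protein is made when stress kinases slow translation, and it raises genes of amino acid synthesis. Atf3 and Ets21C act downstream of the stress kinase JNK in wounded and tumorous discs. Xrp1 pairs with Irbp18 and slows the growth of Minute cells, where it is known to be induced. Cnc, the fly Nrf2, pairs with Maf-S and turns on antioxidant genes unless Keap1 holds it. CrebA raises secretory pathway genes in embryonic glands, and Pdp1 and Vri act with opposite sign on the clock gene Clk in neurons.

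The 9 replicates held 14201662 to 22263073 counts and the 18 libraries 5611674 to 11193858. Levels are CPM, counts brought to the same library total with TMM factors. wts itself stood at 274, 256 and 277 CPM in wts day 9 replicates 1 to 3, at 213, 208 and 185 CPM in wts day 5 replicates, and at 99.8, 106 and 95.6 CPM in control replicates. Every wts replicate lay above every control, and since no source here states the lesion of wts149, its RNA level is no check of the genotype. Of the disc epithelium markers on the list used here, all 13 passed the filter on low counts, and their summed level was 3298 to 3521 CPM on day 9, 3128 to 3260 CPM on day 5 and 2842 to 3089 CPM in controls. Both wts groups lay above all controls in this sum, and calls of these markers are given below with those of other cell types. The replicates differed in genes that the steroid hormone ecdysone induces, chosen here with their values known. The repressor gene Blimp-1 stood at 61.6, 6.26 and 44.3 CPM in wts day 9 replicates 1 to 3, at 0.466, 0.492 and 0.104 CPM in wts day 5 replicates, and at 110, 0.578 and 105 CPM in control replicates. Hr4, a nuclear receptor gene, stood at 62.4, 5.49 and 31.2 CPM on day 9, at 2.49, 2.11 and 2.70 CPM on day 5 and at 188, 2.62 and 157 CPM in controls. Control replicate 2 therefore stood with the wts day 5 discs in these genes and apart from control replicates 1 and 3, and results that rest on it are given with and without it. In whole discs, fewer cells of a type and less RNA per cell cannot be told apart, and how much of a disc was mutant is not stated. Nothing in the labels tells whether replicates came from separate animals or cultures, and the p-values cover only the spread among these samples.

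**Figure D1:**
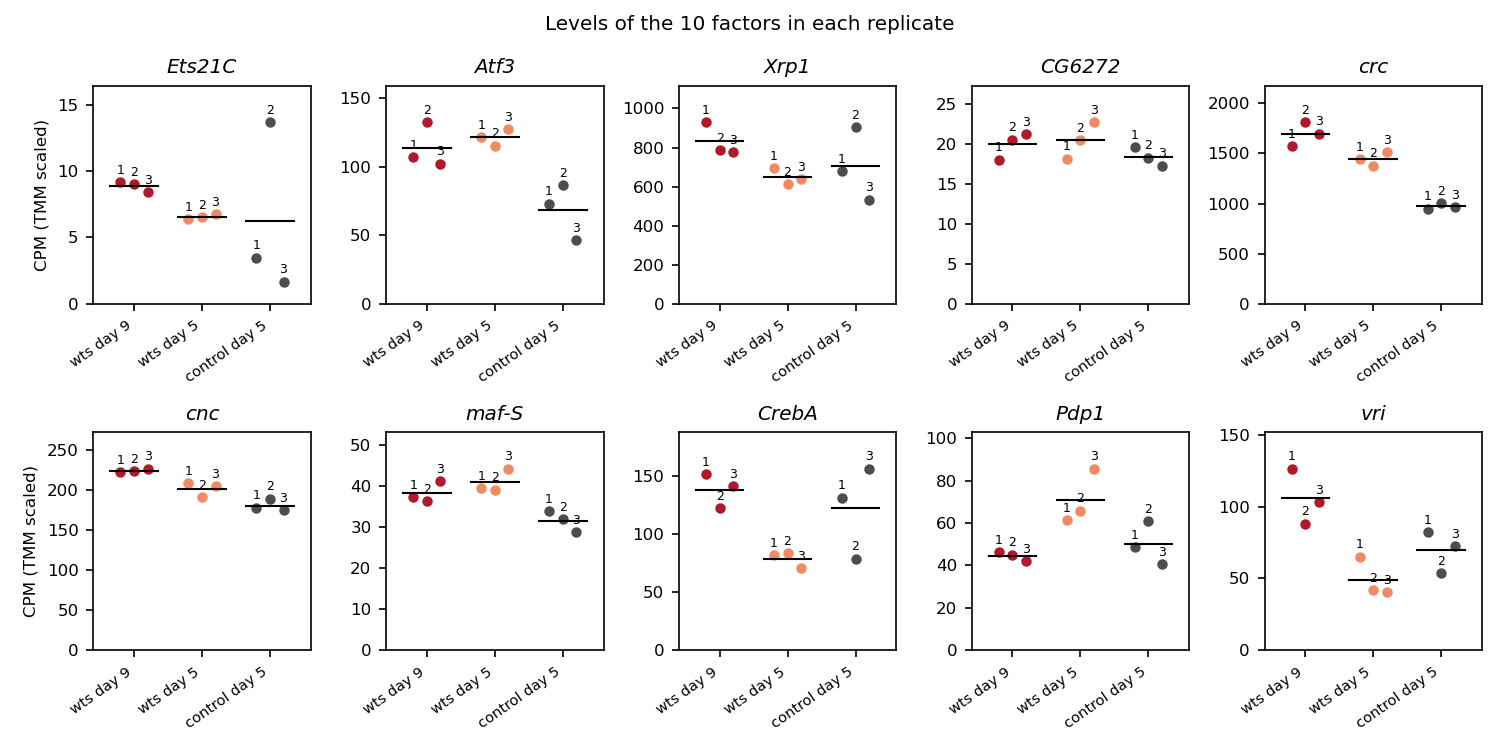
Level of each of the 10 genes (CPM scaled with TMM, vertical axis from 0) in wts day 9, wts day 5 and control day 5 discs; each point is 1 replicate with its number and each bar the mean of 3. crc, Atf3 and maf-S lie above every control in both wts groups, whereas the controls of Ets21C run from 1.65 to 13.7 CPM and span both wts groups.

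Per kilobase of annotated exon, crc was the most abundant of the 10 in every group, at 495 ± 34.6 CPM per kilobase on day 9, 422 ± 19.7 on day 5 and 284 ± 8.06 in controls (SD, n = 3 each). Xrp1 came next, at 172 ± 17.7, 134 ± 8.54 and 146 ± 38.6 CPM per kilobase in the same groups. Ets21C was the least abundant, at 1.64 ± 0.0764, 1.21 ± 0.0355 and 1.16 ± 1.20 CPM per kilobase. Between them, the order in wts day 9 discs and in controls was maf-S, CG6272, CrebA, cnc, vri, Atf3 and Pdp1. On day 9 the replicates of CG6272 and CrebA, of cnc and vri, and of vri and Atf3 overlapped, and in controls those of CG6272 and CrebA, of CrebA and cnc, and of vri and Atf3. In wts day 5 discs cnc stood above CrebA, and Atf3 above vri. There only CrebA and Atf3 overlapped among neighbours in the order. Positions given here are from the Ensembl annotation of BDGP6, and the lengths are the union of all its exons of a gene, so exons that discs do not use would lower a value, most for Pdp1 with 12138 exon bases and 13 transcripts.

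The comparisons asked which of these factors differ between wts and control discs, and between the ages of wts discs. Against controls, 4 of the 10 rose on day 9 (crc, Atf3, cnc and maf-S), beside 15.3% of all 8585 genes called higher and 29.6% called in either direction (quasi-likelihood F-test of edgeR, adjusted p under 0.05 after Benjamini-Hochberg). On day 5, 4 rose (crc, Atf3, maf-S and Pdp1), beside 9.64% of all genes called higher and 18.5% called in either direction. With all replicates and the settings used throughout, edgeR called none of the 10 lower on either day. At an unadjusted p under 0.05, none was lower on day 9 and 2 (CrebA and vri) were on day 5. There, CrebA was called lower by DESeq2 (adjusted p = 0.00766) and by edgeR with library size alone (0.0469) or with every gene that had a count (0.0449), and voom called none lower. Between the ages, vri and CrebA rose on day 9 relative to day 5 and Pdp1 fell, where 5.44% of all genes were called higher, 2.90% lower and 8.34% either way. The replicates did not overlap for 5 of the 10 between day 9 and controls, for 5 between day 5 and controls and for 7 between the ages, beside 44.5%, 37.1% and 35.5% of all genes in those comparisons. The median log2 fold change of the 10 was 0.30 on day 9 and 0.16 on day 5 against controls, beside -0.01 and -0.002 over all genes, and 0.19 for day 9 against day 5, beside -0.01.

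Apart from crc on both days and cnc on day 9, which members passed against controls depended on the replicates included. Without control replicate 2, 5 rose on each day against controls, with Ets21C added on both, Xrp1 added and maf-S lost on day 9, and CrebA falling on day 5. Without wts day 5 replicate 1, vri fell on day 5 (log2 -0.75, edgeR adjusted p = 0.0438) and Atf3 and Pdp1 were lost. The day 5 count was 1, crc, without wts day 5 replicate 3, and the day 9 count was 2, crc and cnc, without wts day 9 replicate 2. Between the ages edgeR called none without any 1 of wts day 5 replicates 2 and 3 and wts day 9 replicates 1 and 3, and vri alone without wts day 9 replicate 2. The comparisons with controls share the same 3 control replicates, and on day 9 age and genotype change together, because no day 9 controls were analysed here.

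**Figure D2:**
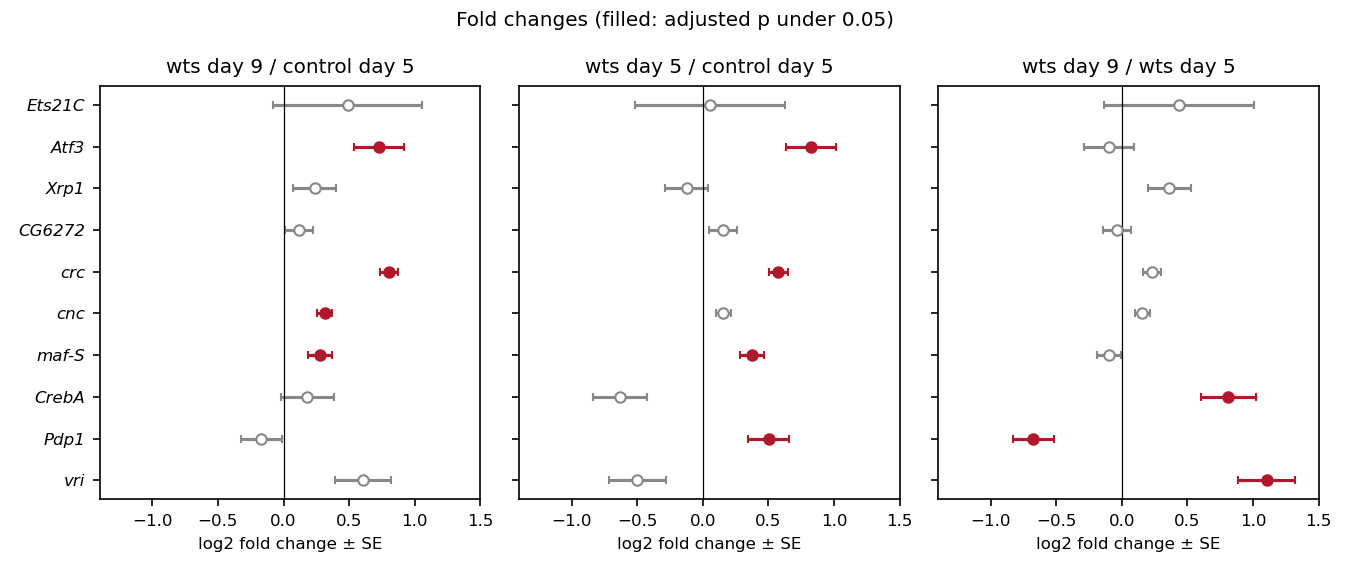
Log2 fold change ± SE (horizontal axis) of the 10 genes for wts day 9 over control, wts day 5 over control, and wts day 9 over wts day 5, from the fit of 3 replicates per group; filled points had an adjusted p under 0.05. crc and Atf3 lie to the right of 0 in both comparisons with controls, and vri, CrebA and Pdp1 carry the calls between the ages.

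crc (2L, 21310866 to 21319527) rose at both ages. It stood at 1575, 1811 and 1697 CPM in wts day 9 discs, at 1444, 1379 and 1514 CPM in wts day 5 discs, and at 949, 1002 and 961 CPM in controls. No wts replicate overlapped the controls, and the lowest day 9 value lay above the highest day 5 value. Against controls the log2 fold change was 0.80 ± 0.07 on day 9 (SE; edgeR adjusted p = 7.04e-05) and 0.57 ± 0.07 on day 5 (edgeR adjusted p = 0.000904), which is 1.75-fold and 1.49-fold. Both calls held in each of the 19 alternative fits. Between the ages it was 0.23 ± 0.07 (edgeR adjusted p = 0.0754), a difference that DESeq2 called (adjusted p = 0.00687). The current annotation places another gene, CG46314, over 73.5% of the exon bases of crc on the same strand. The count table has no row for CG46314, so the value of crc may hold reads of both.

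Of 15 genes of the integrated stress and unfolded protein responses, around ATF4, 2 rose and 2 fell on day 9 and 1 rose and 1 fell on day 5, beside 29.6% and 18.5% of all genes called in either direction. At an unadjusted p under 0.05 in edgeR, 5 were higher and 2 lower on day 9, and 2 higher and 6 lower on day 5. The list's medians were -0.04 on day 9 and -0.12 on day 5, beside -0.01 and -0.002 over all genes. On day 5 DESeq2 called 1 higher and 4 lower, and voom 1 higher and 0 lower. Gcn2, a kinase that raises ATF4 translation when amino acids are short, rose on day 5 (106 ± 4.94 CPM in wts discs against 89.8 ± 3.22 CPM in controls, edgeR adjusted p = 0.0165), and stood at 99.7 ± 2.77 CPM on day 9 (adjusted p = 0.069). The other kinase gene, PEK, stood at 189 CPM on day 9, 195 CPM on day 5 and 210 CPM in controls, with no call. Ero1L, an oxidase of protein folding, rose on day 9 (log2 0.37 ± 0.08), and the initiation factor genes eIF-2alpha (-0.28 ± 0.08) and eIF-2beta (-0.25 ± 0.07) fell. On day 5 the number that fell was 5 without control replicate 2, and 0 without control replicate 1 or 3, any one of the wts day 5 replicates, or wts day 9 replicate 3, and the number that rose was 3 without control replicate 3 and 0 without wts day 5 replicate 1 (edgeR). On day 9, 1 rose without control replicate 1 or 2 or wts day 9 replicate 2 or 3, 1 fell without wts day 9 replicate 1, and none fell without control replicate 1 or wts day 9 replicate 2 or 3.

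Of 15 known ATF4 target genes, 1 rose and 2 fell on day 9, and none rose and 3 fell on day 5. Over all genes, 15.3% were called higher and 14.3% lower on day 9, and 9.64% and 8.88% on day 5. The list's median was -0.11 on day 9, beside -0.01 over all genes, and -0.52 on day 5, beside -0.002. On day 5 no member of the list was higher at an unadjusted p under 0.05 in edgeR, or was called higher by DESeq2 or voom. The list's calls on day 5 were Phgdh (CG6287), Gadd45 and aay. Phgdh, the first enzyme of serine synthesis, stood at 66.9 ± 10.2 CPM on day 9, 27.4 ± 6.87 CPM on day 5 and 102 ± 41.7 CPM in controls (log2 -1.89 ± 0.29 on day 5, adjusted p = 0.00266; day 9 against day 5, 1.29 ± 0.29, adjusted p = 0.0271). Gadd45, a stress gene, stood at 21.8 ± 5.50, 10.3 ± 1.72 and 22.7 ± 2.53 CPM in the same order, and fell on day 5 (-1.14 ± 0.19). The folate enzyme gene Nmdmc fell on day 9 (-0.65 ± 0.10), and aay, the phosphatase of serine synthesis, fell at both ages at under 3 CPM. Thor, the translation inhibitor 4E-BP, stood at 58.8 CPM on day 9, 23.6 on day 5 and 34.6 in controls, with no call. Without control replicate 2, 5 fell on day 5. The single rise on day 9, ImpL3 (lactate dehydrogenase, log2 1.76), was lost without control replicate 1 or 2, any one of the wts day 5 replicates, or wts day 9 replicate 2 or 3. The number that fell on day 9 was 1 without these replicates other than control replicate 2. Between the ages 3 rose (Phgdh, Gadd45 and ImpL3) and Nmdmc fell (-0.40 ± 0.10), beside 5.44% of all genes called higher and 2.90% lower. The number that rose was 1 without wts day 5 replicate 1 or wts day 9 replicate 2 or 3 and 0 without wts day 5 replicate 2 or 3, and the fall was lost without control replicate 1, wts day 5 replicate 2 or 3, or any 1 of the wts day 9 replicates.

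Atf3 (X, 1242740 to 1275284) rose at both ages. It stood at 107, 133 and 102 CPM on day 9, at 122, 115 and 128 CPM on day 5, and at 73.0, 86.7 and 46.2 CPM in controls. Every wts replicate lay above every control, and the highest control was replicate 2. The log2 fold change was 0.73 ± 0.19 on day 9 (edgeR adjusted p = 0.0181) and 0.82 ± 0.19 on day 5 (edgeR adjusted p = 0.0171). The ages of wts discs differed by -0.10 ± 0.19 (95% interval -0.52 to 0.33). Leaving out wts day 5 replicate 1 (adjusted p = 0.0536) or 3 (0.0668) ended the day 5 call, and leaving out wts day 9 replicate 2 (0.0717) the day 9 call.

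Ets21C (2L, 544925 to 552923) had the controls that varied most, relative to their mean, of the 10. It stood at 9.17, 9.01 and 8.39 CPM on day 9, at 6.37, 6.53 and 6.75 CPM on day 5, and at 3.47, 13.7 and 1.65 CPM in controls. Each wts group lay in a narrow range, and the day 9 replicates lay above those of day 5, while control replicate 2 lay above and control replicates 1 and 3 below all 6 wts replicates. The log2 fold change against controls was 0.49 ± 0.57 on day 9 (edgeR adjusted p = 0.542) and 0.06 ± 0.57 on day 5 (edgeR adjusted p = 0.955). Without control replicate 2 it was 1.77 on day 9 (adjusted p = 0.00245) and 1.34 on day 5 (adjusted p = 0.0107). Between the ages it was 0.43 ± 0.57 (95% interval -0.84 to 1.71), with 1 estimate of spread shared by all groups, the controls included. Of its annotated exon bases, 28.3% overlap nAChRbeta3 on the opposite strand, which had 0 counts in all 18 libraries.

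Of 13 genes of the JNK cascade and AP-1, around Atf3 and Ets21C, 1 rose and 1 fell on day 9, beside 29.6% of all genes called in either direction, and 1 rose and 2 fell on day 5, beside 18.5%. The TNF receptor gene grnd rose at both ages (147 ± 6.59 CPM on day 9 and 143 ± 18.1 CPM on day 5 against 106 ± 7.70 CPM in controls), and the adaptor gene Traf4 fell at both (log2 -0.47 ± 0.12 on day 9 and -0.60 ± 0.12 on day 5). The ligand gene egr fell on day 5 (-0.67 ± 0.15). The adaptor gene Traf6 stood at 66.1 CPM on day 9, 63.6 CPM on day 5 and 56.3 CPM in controls, with no call. The AP-1 genes kay and Jra and the feedback phosphatase gene puc, a standard readout of JNK, passed at neither age with all replicates. The level of puc was 62.0 to 71.2 CPM on day 9, 51.3 to 54.6 CPM on day 5 and 42.4 to 119 CPM in controls. Without control replicate 3, 5 fell on day 5, and without wts day 5 replicate 3, 1 fell. On day 9, the number that rose was 2 without control replicate 2 or wts day 5 replicate 2, 3 rose when wts day 9 replicate 1 was left out, and none fell without wts day 9 replicate 2 or 3. DESeq2 with all replicates called 2 higher on day 9.

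Reported targets of JNK, Ets21C and Atf3 were mostly higher. Of 12, 9 rose on day 9 and 7 on day 5, beside 15.3% and 9.64% of all genes called higher. The list, like the others, was chosen with earlier results of these data known. The list's medians were 0.98 and 1.03, beside -0.01 and -0.002 over all genes. None fell on either day by edgeR, also at an unadjusted p under 0.05, or by DESeq2 or voom. The relaxin-like hormone gene Ilp8 rose to 62.8 ± 11.5 CPM on day 9 and 48.9 ± 3.34 CPM on day 5, against 0.822 ± 0.904 CPM in controls. The filamin gene cher (log2 1.25 ± 0.11 on day 9 and 1.40 ± 0.11 on day 5) and the growth-promoting factor chinmo (1.69 ± 0.18 and 1.83 ± 0.18) rose at both ages. scaf, a protease-like gene of the JNK pathway, rose on day 9 alone among these 4, at 385 ± 31.4 CPM, against 85.0 ± 24.9 CPM on day 5 and 89.0 ± 8.20 CPM in controls, and the difference between the ages was called (2.18 ± 0.18, adjusted p = 0.000506). Over the fits that left out 1 replicate, 8 to 10 of the 12 rose on day 9 and 6 to 8 on day 5.

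Xrp1 (3R, 18914968 to 18926989) passed in no comparison. It stood at 929, 787 and 777 CPM on day 9, at 693, 612 and 637 CPM on day 5, and at 678, 903 and 533 CPM in controls. The day 9 replicates lay above those of day 5, and the controls overlapped both wts groups, with control replicate 2 the highest of them. Against controls the log2 fold change was 0.24 ± 0.16 on day 9 (edgeR adjusted p = 0.297) and -0.12 ± 0.16 on day 5 (edgeR adjusted p = 0.63). Without control replicate 2 it was 0.45 on day 9 (adjusted p = 0.0267) and 0.09 on day 5 (adjusted p = 0.635). Between the ages it was 0.36 ± 0.16 (edgeR adjusted p = 0.191), and 0.36 with an adjusted p of 0.0285 in a fit of those groups alone. The labels do not give the share of Minute tissue in a disc.

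CG6272 (3L, 11097446 to 11098186), which encodes Irbp18, the partner of Xrp1, did not pass in any comparison either. It stood at 18.02, 20.5 and 21.2 CPM on day 9, 18.1, 20.5 and 22.7 CPM on day 5 and 19.6, 18.3 and 17.3 CPM in controls. The 3 groups overlapped. The 95% intervals of its log2 fold change were -0.12 to 0.36 on day 9 and -0.09 to 0.39 on day 5 against controls, and -0.28 to 0.20 between the ages. Of its exon bases, 15.5% overlap CG33947 on the opposite strand, which had 530 counts over all libraries beside 3411 for CG6272. The use of strand in counting is not given, so reads of the overlap cannot be assigned.

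Of 17 tested genes of the Xrp1 response and of cell competition, 5 rose and 3 fell on day 9, and 7 rose and 2 fell on day 5. Over all genes, 15.3% were called higher and 14.3% lower on day 9, and 9.64% and 8.88% on day 5. The list's medians were 0.11 on day 9 and 0.10 on day 5, beside -0.01 and -0.002 over all genes. Ilp8, given above, and the cytokine gene upd3 rose at both ages, upd3 to 4.35 ± 0.201 CPM on day 9 and 5.47 ± 0.599 CPM on day 5, against 2.27 ± 0.252 CPM in controls. The DNA break repair genes rad50 (log2 0.39 on day 9 and 0.38 on day 5) and mre11 (0.21 and 0.27) rose at both ages. The glutathione transferase gene GstE6, a readout of Xrp1 in discs, fell on day 9 (-2.10 ± 0.39), and GstE1 fell at both ages (-0.64 ± 0.15 on day 9 and -0.57 ± 0.15 on day 5). The death gene rpr fell on day 9 (-1.20) while hid rose (0.72). Without wts day 5 replicate 3, 3 of the 17 rose on day 5. There, 1 fell without control replicate 2, any one of the wts day 5 replicates or wts day 9 replicate 3.

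cnc (3R, 23185580 to 23226711) rose on day 9. It stood at 223, 224 and 227 CPM on day 9, at 208, 191 and 205 CPM on day 5, and at 178, 189 and 175 CPM in controls. The groups did not overlap, with the wts day 5 discs between the others. Against controls the log2 fold change was 0.31 ± 0.06 on day 9 (edgeR adjusted p = 0.00354), which held in each of the 19 alternative fits, and 0.16 ± 0.06 on day 5 (edgeR adjusted p = 0.0815). cnc has 16 annotated transcripts, some of which encode a head-patterning protein and not the Nrf2-like one, and gene counts do not separate them.

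maf-S (2R, 20640976 to 20641668), the small Maf partner of cnc, rose at both ages. It stood at 37.2, 36.3 and 41.1 CPM on day 9, at 39.5, 39.1 and 44.2 CPM on day 5, and at 33.8, 31.9 and 28.7 CPM in controls. All wts replicates lay above all controls. The log2 fold change was 0.28 ± 0.09 on day 9 (edgeR adjusted p = 0.0425) and 0.38 ± 0.09 on day 5 (edgeR adjusted p = 0.0194). The day 9 call ended in 11 of the 19 alternative fits, with adjusted p of 0.051 to 0.184, among them those that left out control replicate 2 or 3, wts day 5 replicate 1, or any 1 of the wts day 9 replicates. On day 5 the call was lost without wts day 5 replicate 3 (adjusted p = 0.0632) and with the a libraries alone (0.091).

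Among genes of the Nrf2 system, falls outnumbered rises. Of 14 tested, among them the inhibitor gene Keap1, 1 rose and 5 fell on day 9, and none rose and 3 fell on day 5. GstD1, GstE1 and GstE6 are also on the list of the Xrp1 response, so the falls of GstE1 and GstE6 given above count in both. Over all genes, 15.3% were called higher and 14.3% lower on day 9, and 9.64% and 8.88% on day 5. The list's medians were -0.28 and -0.25, beside -0.01 and -0.002 over all genes. On day 5, 2 were higher at an unadjusted p under 0.05 in edgeR, DESeq2 and voom called none higher, and edgeR called 1 higher without wts day 9 replicate 1. The fall of Keap1, the inhibitor, was called at both ages (-0.36 on day 9 and -0.39 on day 5, with 15.3 CPM, 15.0 CPM and 19.6 CPM in the day 9, day 5 and control discs). The superoxide dismutase genes Sod (159 ± 12.4 CPM on day 9 and 170.3 ± 2.94 CPM on day 5 against 204 ± 11.6 CPM in controls) and, on day 9, Sod2 (log2 -0.40 ± 0.06) fell. Sod2 also fell between the ages (-0.33 ± 0.06), among 3 falls of the list there, beside 2.90% of all genes called lower. All 3 falls were lost without any 1 of wts day 5 replicates 2 and 3 and wts day 9 replicates 2 and 3. GstD1, the usual Nrf2 reporter, stood at 787 CPM, 840 CPM and 730 CPM in day 9, day 5 and control discs, with no call. Falls on day 5 numbered 5 when control replicate 3 was left out, 1 for wts day 5 replicate 2, and 0 for control replicate 1, wts day 5 replicates 1 and 3 and wts day 9 replicate 3 (edgeR). Falls on day 9 numbered 3 when wts day 9 replicate 2 was left out. The single rise on day 9, the peroxiredoxin gene Prx2540-1, was lost without control replicate 1 or 3 or wts day 9 replicate 1.

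**Figure D3:**
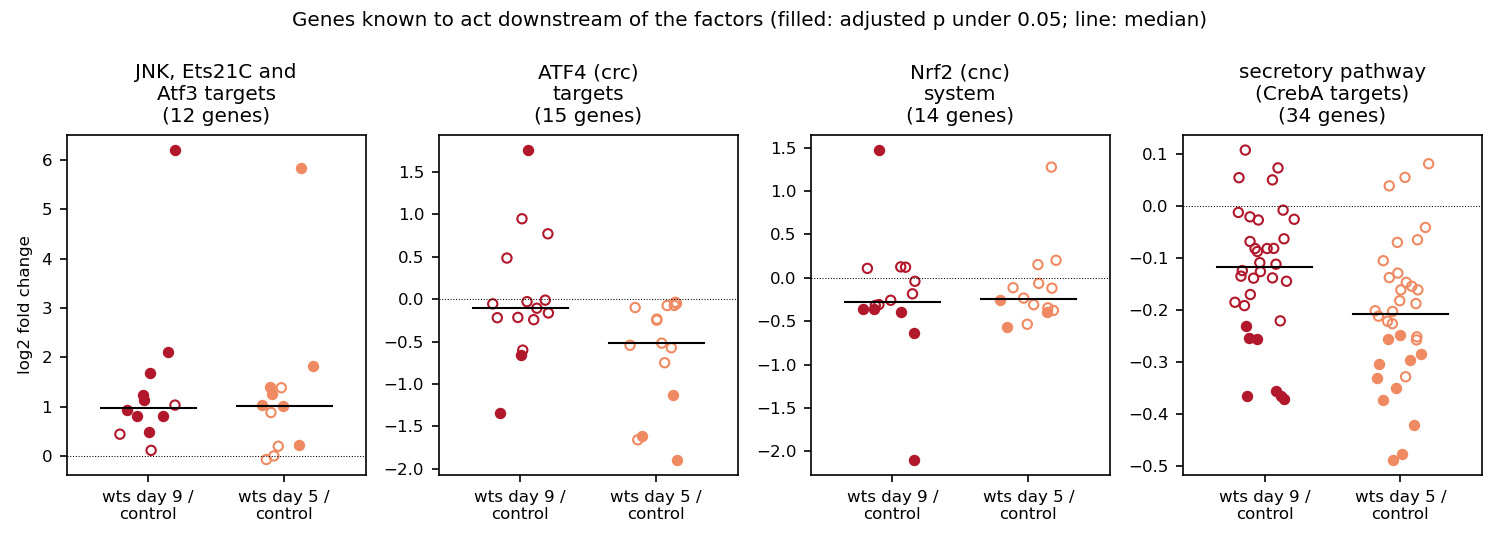
Log2 fold change (vertical axis, a different scale in each panel) for wts day 9 over control and wts day 5 over control. The genes are known to act downstream of the factors, apart from Keap1, the inhibitor of Cnc, in the Nrf2 panel. Each point is 1 tested gene, filled where the adjusted p was under 0.05, and lines are medians. Points of the JNK, Ets21C and Atf3 targets lie mostly above 0, with medians of 0.98 and 1.03, and those of the secretory genes mostly below 0, with medians of -0.12 and -0.21.

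CrebA (3L, 15535395 to 15553214) rose between the ages of wts discs. It stood at 152, 122 and 142 CPM on day 9, at 82.0, 83.9 and 70.7 CPM on day 5, and at 131, 78.7 and 156 CPM in controls. The wts groups did not overlap, and control replicate 2 lay in the wts day 5 range, control replicate 1 in the day 9 range and control replicate 3 above it. The log2 fold change of day 9 over day 5 was 0.81 ± 0.21 (edgeR adjusted p = 0.0408). Against controls it was 0.18 ± 0.20 on day 9 (edgeR adjusted p = 0.529) and -0.63 ± 0.21 on day 5 (edgeR adjusted p = 0.0587), where it was -0.87 with an adjusted p of 0.00128 without control replicate 2. Leaving out control replicate 1, any 1 of the wts day 5 replicates or any 1 of the wts day 9 replicates ended the call between the ages (adjusted p 0.0575 to 0.143).

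The secretory pathway genes that CrebA is known to raise gave falls and no rises. Of 34 tested, none rose and 7 fell on day 9, and none rose and 11 fell on day 5, beside 14.3% and 8.88% of all genes that were called lower. None was higher at an unadjusted p under 0.05 on either day in edgeR, or called higher by DESeq2 or voom. Sec61beta, a subunit of the channel into the endoplasmic reticulum, stood at 196 ± 15.1 CPM on day 9 and 198 ± 7.34 CPM on day 5, against 252 ± 29.4 CPM in controls. Sec61gamma, another subunit, fell by 0.37 ± 0.09 on day 9 and 0.30 ± 0.09 on day 5 on the log2 scale. Tango1, which loads bulky cargo for export, fell by 0.36 ± 0.09 on day 9 and 0.48 ± 0.09 on day 5 on the log2 scale, and the coat gene Sec24CD by 0.25 ± 0.08 and 0.42 ± 0.08. Between the ages, where CrebA rose, edgeR called none of the 34 and voom none, 5 were higher at an unadjusted p under 0.05, and DESeq2 called 3 higher. Without control replicate 2 edgeR called 2 higher, and without wts day 9 replicate 2 it called 1. The list's median was 0.09 beside -0.01 over all genes. The summed level of the list was 5231, 4668 and 5114 CPM on day 9, 4660, 4760 and 4455 CPM on day 5, and 5765, 5019 and 5740 CPM in controls, so control replicate 2 was again the control nearest to the wts day 5 discs. Falls on day 5 numbered 13 when control replicate 2 was left out, 7 and 6 for wts day 9 replicates 1 and 3, 5 for control replicate 3 or wts day 5 replicate 2, and 2 for control replicate 1 and for wts day 5 replicates 1 and 3. Falls on day 9 numbered 9 when control replicate 2 was left out, 4 for wts day 5 replicate 3, 3 for control replicates 1 and 3 and for wts day 5 replicates 1 and 2, 2 for wts day 9 replicate 3 and 0 for wts day 9 replicate 2 (edgeR). Fat body and salivary gland markers (8 of 13 passed the filter) summed to 14.9, 219.5 and 30.01 CPM on day 9, 6.79, 5.69 and 27.4 CPM on day 5, and 16.2, 390.1 and 6356 CPM in controls 1 to 3. The glue gene Sgs3 of the salivary gland was at 0 in at least 1 replicate of each wts group and at 0.984 to 2581 CPM in controls. Their part in the secretory values was not tested.

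vri (2L, 5288944 to 5311223), a repressor also needed for cell growth and wing hairs, rose between the ages of wts discs more than any other of the 10. It stood at 126, 88.2 and 103 CPM on day 9, at 65.3, 41.6 and 40.5 CPM on day 5, and at 82.4, 53.6 and 72.6 CPM in controls. Every day 9 replicate lay above every other replicate, and the controls overlapped the day 5 discs. The log2 fold change of day 9 over day 5 was 1.10 ± 0.22 (edgeR adjusted p = 0.0178), a rise of 2.15-fold. Against controls it was 0.61 ± 0.21 on day 9 (edgeR adjusted p = 0.0568) and -0.50 ± 0.22 on day 5 (edgeR adjusted p = 0.135). The day 9 difference was called by DESeq2 (adjusted p = 0.0119) and voom (0.0488), and by edgeR with every gene that had a count (0.0385), with only day 9 and control discs in the fit (0.0454) and without wts day 5 replicate 1 (0.0288). Without that replicate the day 5 difference was called as well (-0.75, adjusted p = 0.0438). With the replicate number as a block in the fit, edgeR called vri higher on day 9 (adjusted p = 0.00486) and lower on day 5 (0.0153). Adjusted p was 0.0526 to 0.0806 between the ages without wts day 5 replicate 2 or 3, or without wts day 9 replicate 1 or 3, which ended the call.

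Pdp1 (3L, 7811458 to 7867369), an activator of growth and muscle genes, ran the other way. It stood at 46.2, 45.2 and 42.1 CPM on day 9, at 61.4, 65.9 and 85.7 CPM on day 5, and at 48.6, 60.9 and 40.6 CPM in controls. The day 5 discs lay above all others, with control replicate 2 just below the lowest of them, and the day 9 discs lay within the control range. Day 9 over day 5 gave a log2 fold change of -0.68 ± 0.16 (edgeR adjusted p = 0.0298), a call that ended without wts day 5 replicate 2 or 3 or any one of the wts day 9 replicates (adjusted p 0.0677 to 0.118). Against controls it was 0.50 ± 0.16 on day 5 (edgeR adjusted p = 0.0494), a call that ended in 15 of the 19 alternative fits. These included every fit that left out 1 replicate apart from the one without control replicate 2, with adjusted p from 0.0543 to 0.172. On day 9 it was -0.17 ± 0.16 (edgeR adjusted p = 0.433).

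The clock genes that vri and Pdp1 act with in neurons were mostly near the floor of detection. Of 11 on the list, 4 passed the filter on low counts, and Clk, the target of both, had at most 0.0942 CPM on average in any group. The Clk partner gene cyc stood at 70.6 ± 1.61 CPM on day 9, 50.1 ± 4.89 CPM on day 5 and 63.9 ± 4.81 CPM in controls, fell on day 5 (log2 -0.35 ± 0.08, adjusted p = 0.0193) and rose between the ages (0.49 ± 0.08, adjusted p = 0.0105). Its fall on day 5 was lost without control replicate 1 or wts day 5 replicate 2 or 3. cwo, dco and sgg passed in no comparison with all replicates, and without control replicate 2 edgeR called 1 gene of the list higher than in controls on each day.

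Some markers of other cell types in the disc also differed between the groups. Over all genes, 15.3% were called higher and 14.3% lower on day 9, and 9.64% and 8.88% on day 5, against controls. Between the ages, 5.44% were called higher and 2.90% lower. Of the 13 disc epithelium markers, 6 rose and 2 fell on day 9 and 4 rose and 3 fell on day 5 against controls. Over the fits that left out 1 replicate, 4 to 8 of them rose on day 9, and on day 5 1 to 5 rose and 1 to 3 fell. Between the ages 1 rose and 1 fell. Of 14 tested markers of differentiated muscle, 11 fell on day 9 and 7 on day 5 against controls, and 6 fell between the ages. The muscle myosin gene Mhc stood at 1.82 ± 1.94, 27.6 ± 14.6 and 63.3 ± 19.5 CPM in day 9, day 5 and control discs. The summed list, which holds genes that other cells also express, was 1609 to 2554 CPM on day 9, 1831 to 2121 CPM on day 5 and 1773 to 2780 CPM in controls. Leaving out control replicate 2 left 4 falls on day 5, leaving out wts day 5 replicate 1 left 2, and leaving out wts day 5 replicate 3 left 1. Of the falls between the ages, 3 were left when wts day 5 replicate 1 was dropped, 2 for wts day 5 replicates 2 and 3, and 1 for wts day 9 replicates 2 and 3. Of 10 tested tracheal markers, 5 rose and 2 fell on day 9 and 4 rose and 2 fell on day 5. Their sum was 4200 to 4705 CPM on day 9 and 3658 to 4130 CPM on day 5, against 2541 to 2913 CPM in controls, so that both wts groups lay above all controls. The FGF receptor gene btl, which marks tracheal cells, was among the falls at both ages (9.67 ± 1.09 CPM on day 9 and 7.53 ± 1.06 CPM on day 5 against 14.0 ± 0.256 CPM in controls), and the cuticle gene serp among the rises (453 ± 27.7 and 402 ± 21.1 against 261 ± 34.4 CPM). Leaving out wts day 9 replicate 2 left 1 tracheal fall on day 9. Of 10 myoblast markers, 2 fell and 1 rose on day 9 and 6 fell on day 5, and 4 rose between the ages, or 2 without any 1 of wts day 5 replicates 2 and 3 and wts day 9 replicates 1 and 3. On day 9, 4 myoblast markers fell without wts day 9 replicate 1. The sum of the myoblast list was 596 to 647 CPM on day 9, 469 to 521 CPM on day 5 and 698 to 749 CPM in controls. The sum of 8 haemocyte markers was 112 to 162 CPM on day 9, 62.9 to 73.4 CPM on day 5 and 61.4 to 123 CPM in controls, and 6 of them rose between the ages. That number was 2 without wts day 5 replicate 1 or wts day 9 replicate 3, 1 without wts day 5 replicate 2 or wts day 9 replicate 1 or 2, and 0 without wts day 5 replicate 3 (edgeR). The part of muscle, tracheal cells, myoblasts or blood cells in the values of the 10 genes was not tested.

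Most of the 10 also varied within groups beside the ecdysone-induced genes. Over the 9 replicates the Pearson correlation of log2 CPM with Blimp-1 was 0.97 for CrebA, 0.81 for vri and -0.89 for Pdp1, and after subtracting group means 0.96, 0.71 and -0.73. For Ets21C it was -0.48 over the replicates and -0.86 within groups. Atf3 was at -0.61 and -0.75, Xrp1 at 0.03 and -0.65, crc at -0.21 and -0.64, and cnc at -0.09 and -0.64, while CG6272 (-0.17) and maf-S (-0.08) were nearest to 0 within groups. With Hr4 the values within groups were 0.91 for CrebA, -0.82 for Ets21C, -0.71 for Atf3, 0.69 for vri and -0.56 for Pdp1. These are descriptions over 9 replicates of 3 groups that share libraries and depth. Blimp-1 had only 9, 7 and 2 counts in wts day 5 replicates 1 to 3. In control replicate 2 it had 13, beside 2354 and 1967 in control replicates 1 and 3, so this replicate weighs heavily within groups. Correlations without control replicate 2 were not computed. By replicate, where Blimp-1 was 0.578 CPM, in control replicate 2, CrebA and vri were lowest among the controls. Pdp1, Ets21C, Xrp1, Atf3, crc and cnc were highest there. On day 9, replicate 2 had the least Blimp-1 and also the least CrebA and vri, and the most Atf3 (133 CPM) and crc (1811 CPM). The rest of the control pattern was not repeated there. Pdp1 (45.2 CPM), Ets21C (9.01 CPM), Xrp1 (787 CPM) and cnc (224 CPM) lay between the other day 9 replicates.

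**Figure D4:**
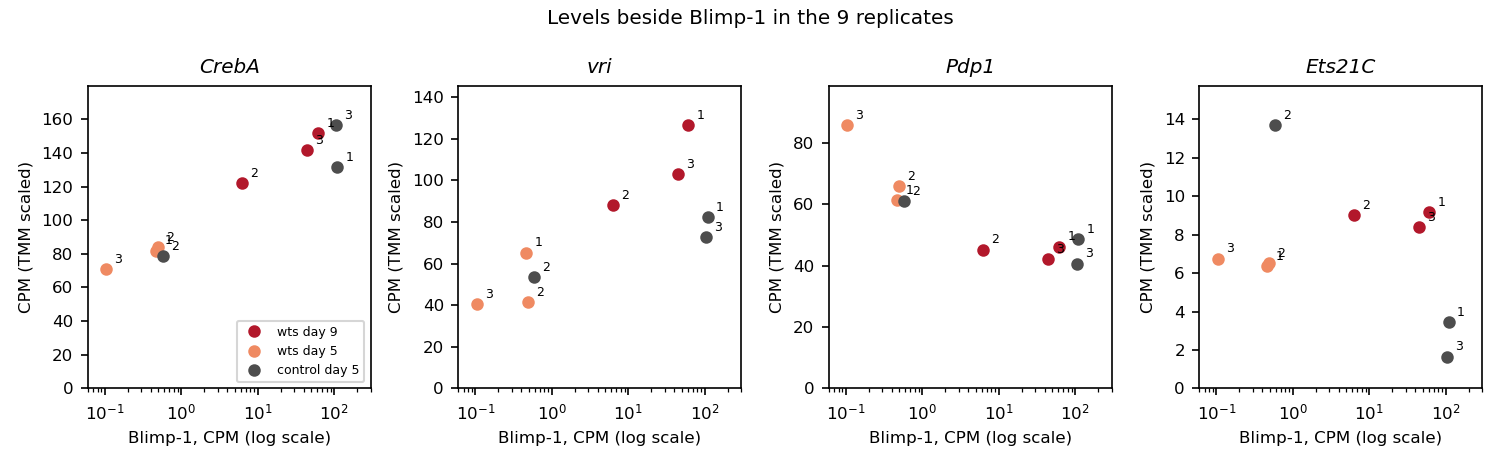
Level of CrebA, vri, Pdp1 and Ets21C (CPM scaled with TMM, vertical axis from 0) against Blimp-1 (CPM, log axis) in the 9 replicates, numbered, of wts day 9, wts day 5 and control day 5 discs. Control replicate 2, at 0.578 CPM of Blimp-1, lies beside the wts day 5 replicates for CrebA, vri and Pdp1 and far above them for Ets21C, at 13.7 CPM.

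Among the 10 themselves, the highest Pearson correlations of log2 CPM over the 9 replicates were between crc and cnc (0.94), CrebA and vri (0.86), Atf3 and maf-S (0.84) and Ets21C and Xrp1 (0.82), and the lowest between CrebA and Pdp1 (-0.94) and Pdp1 and vri (-0.84). Xrp1 and Ets21C stayed together within groups (0.91), whereas crc and cnc were at 0.52 and crc and maf-S at 0.18 there. The genes most like each member over the same 9 replicates, by the same correlation and outside the 10, were dm (Myc, a growth regulator), CG15098 and mrt for crc (0.99 each), and pck (0.995), Wsck and Ptp4E (0.98 each) for cnc. They were ken (0.98), Tie (0.98) and Ald (0.97) for Atf3, and CG5359 (0.98), CG11825 and exp (0.95 each) for maf-S. For Ets21C they were dl, an NF-kappaB factor (0.98), CG1146 (0.95) and CG12065 (0.94), and for Xrp1 the repair polymerase gene DNApol-iota (0.96), CG15784 and CG33111 (0.95 each). The closest to CrebA were Wnt4, a Wnt ligand, alt and bip1 (0.98 each). The closest to vri were Tsp, the thrombospondin gene (0.97), CG32444 (0.96) and CG1399 (0.95), and to Pdp1 SkpA (0.97), CG10527 (0.95) and Dbp73D (0.94). CG6272 had the weakest neighbours, CG17652 (0.94), Atg14 (0.89) and CG31999 (0.88). Genes that differ between the groups in the same direction correlate over the 9 replicates whatever they do within groups.

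Of 14 other tested bZIP and Ets genes, 5 rose and 1 fell on day 9, and 3 rose and 2 fell on day 5. Over all genes, 15.3% were called higher and 14.3% lower on day 9, and 9.64% and 8.88% on day 5. The list's medians were 0.27 on day 9 and 0.15 on day 5, beside -0.01 and -0.002 over all genes. REPTOR (CG13624) and its partner REPTOR-BP (CG18619), which carry the response to low TOR activity, rose together. REPTOR stood at 103 ± 14.1 CPM on day 9 and 94.0 ± 14.5 CPM on day 5 against 52.3 ± 6.33 CPM in controls, and REPTOR-BP at 42.0 ± 6.18 and 35.6 ± 8.33 against 17.8 ± 0.450 CPM. The Ets activator gene pnt, an effector of EGF receptor signalling, fell at both ages (45.2 ± 3.88 CPM on day 9 and 39.4 ± 2.18 CPM on day 5 against 69.8 ± 2.65 CPM in controls). aop, the Ets repressor that opposes it, rose on day 9 (log2 0.41 ± 0.06) and between the ages (0.28 ± 0.06), and stood at 239 ± 7.44 CPM on day 5 against 218 ± 7.57 CPM in controls with no call. Between the ages 2 of the 14 rose, beside 5.44% of all genes called higher. The number was 1 without wts day 9 replicate 2. By edgeR none rose without any 1 of wts day 5 replicates 2 and 3 and wts day 9 replicates 1 and 3. The second fall on day 5, Xbp1, was at 181 CPM in wts discs and 249 CPM in controls (edgeR adjusted p = 0.0411), and 1 gene fell without control replicate 1, any one of the wts day 5 replicates or wts day 9 replicate 3. Of the 20 genes on the list, 6 did not pass the filter on low counts, among them slbo, Ets65A and Ets96B.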

How the data were processed

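Total RNA of hand-dissected wing discs was read in 18 libraries. The deposited values are raw read counts per gene, with HTSeq named in the submitters' processing notes. For the HTSeq version, aligner, build and strand setting, no value is given in the sources used here. The a and b libraries of a replicate were summed, since chi-square over its degrees of freedom (genes with at least 10 counts) was 0.994 to 1.06 between them and 11.1 to 58.9 between replicates, so n = 3 per group. One model of all groups was fitted with edgeR 4.0.16 (filterByExpr, TMM, quasi-likelihood F-test, Benjamini-Hochberg over 8585 genes, adjusted p under 0.05). SEs and 95% intervals come from that fit, and log2 CPM for correlations used a prior count of 2. DESeq2 1.42.0 and limma 3.58.1 (voom) were alternatives, in R 4.3.3, and figures were drawn with matplotlib 3.10.9. Positions and exon lengths are from the Ensembl release 115 annotation of BDGP6, where all 10 genes matched, CG6272 under the symbol Irbp18. The genes named are the 10, from each list up to 4 genes with the smallest adjusted p against controls, the 3 genes most like each member, and Hr4 and Blimp-1. Other named list members were named after their values were seen. Some genes, among them Ilp8, upd3, puc, Gadd45 and Thor, stand on several lists, so the counts of the lists are not independent. The members and lists were chosen with earlier results of these data known.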

Additional observations from a re-analysis of the deposited data

Results flagged for a closer look

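For 3 genes, the day 9 and day 5 differences of wts discs from the same controls differed from each other by the test of day 9 against day 5. The estimates against controls lay on opposite sides of 0 at the ages for CrebA (log2 0.81 for day 9 over day 5), vri (1.10) and Pdp1 (-0.68). Day 9 and day 5 gave 0.18 and -0.63 for CrebA, 0.61 and -0.50 for vri, and -0.17 and 0.50 for Pdp1. Of these, edgeR called only Pdp1 on day 5 (adjusted p = 0.0494), a call that ended in 15 of the 19 alternative fits. Each call between the ages also ended in several fits that left out 1 wts replicate. No day 9 controls were analysed here, so age and genotype cannot be told apart in the day 9 values.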

How the results depend on the processing

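Of 570 recomputed log2 fold changes of the 10 genes (30 values, 19 alternatives), 499 kept direction and side of the threshold, 48 lost a call, 17 gained one and 6 changed sign. The sign changes all came from leaving out 1 replicate, where Ets21C on day 5 ran from -0.39 to 1.34 (-0.23 without control replicate 1, -0.39 without control replicate 3), Xrp1 on day 5 from -0.288 to 0.0941, CrebA on day 9 from -0.0628 to 0.395, and CG6272 between the ages from -0.117 to 0.0498 (0.0333 without wts day 9 replicate 1). The number of members called was 4 on day 9 (2 to 5 leaving out 1 replicate, 3 to 5 in the other 10 alternatives), 4 on day 5 (1 to 6, and 3 to 5) and 3 between the ages (0 to 3, and 2 to 4). Between the ages none was called by edgeR without wts day 5 replicate 2 or 3, or without wts day 9 replicate 1 or 3, and 1 without wts day 9 replicate 2, where fewer samples enter the fit. With library size alone the median of all genes was -0.07 on day 9 and -0.05 on day 5, CrebA fell on day 5 (-0.69), and Pdp1 on day 5 and maf-S on day 9 were not called. The labels do not say whether the replicate numbers pair the samples. Same-numbered replicates deviated with correlations of -0.167 to 0.244, and those of different numbers with -0.259 to 0.174. In 4 of 9 replicates the highest correlation was with the same number. These overlapping ranges cannot settle whether the numbers pair the samples. With the replicate block, 4, 4 and 2 members were called on day 9, on day 5 and between the ages, with vri called on day 9 (adjusted p = 0.00486) and lower on day 5 (0.0153), and maf-S on day 9 (0.0711), Pdp1 on day 5 (0.0751) and Pdp1 between the ages (0.0539) not called. The alternatives for the gene lists were chosen after seeing the data. Ets21C, with 1280 counts over all libraries, was the least deeply measured of the 10.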
